A study of Mus musculus with 12 samples.

Results

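The genes described are 8 components of the intrarenal renin-angiotensin system, out of 25562 mouse genes in the count tables: Agt, Ren1, Atp6ap2, Ace, Agtr1a, Agtrap, Enpep and Mme. They were chosen by name for their place in the pathway. Each deposited transcript was matched to its gene by Ensembl identifier, and a gene is represented here by its transcript with the most counts summed over the 12 libraries. All 8 genes were found in the tables. Of these, 5 had enough counts to be tested (Agt, Atp6ap2, Agtrap, Enpep and Mme), and 3 did not (Ren1, Ace and Agtr1a).

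RNA was sequenced from conditionally immortalized proximal tubule (PT) cells of male mice that carry floxed alleles of Tgfbr2, the gene of the type II TGF-β receptor TβRII, as well as the Immorto-mouse transgene, a T antigen that is stable at low temperature and lets the cells divide. The 4 groups of 3 libraries were untreated TβRIIflox/flox PT cells (genotype H2ts6;Tgfbr2fl/fl), untreated TβRII-/- PT cells (H2ts6;Tgfbr2-/-), and each genotype after 24 h of H2O2 in serum-free medium. TβRII-/- PT cells were made from TβRIIflox/flox PT cells by Cre recombinase from an adenovirus in culture, so the genotypes are a pair of cell lines, and the loss of TβRII cannot be told apart from other differences between these lines. Untreated cells stayed in complete medium that held hydrocortisone, triiodothyronine, an insulin, transferrin and selenium supplement and 2.5% serum, so H2O2 and the change of medium cannot be told apart either, and "H2O2" below stands for both. All cells had been moved from 33 to 37 °C 5 days earlier, without interferon-γ. The labels give the dose of H2O2 as 200 mM and the paper's methods give it in μM. For cells given H2O2, those methods put 24 h in medium without serum ahead of the treatment. The change of medium in these libraries may thus have lasted longer than the H2O2. The paper's general methods give 3 or more independent experiments or biological replicates for in vitro work, unless stated otherwise. They do not say which of these the sequenced libraries were. Nothing in the labels says that the libraries of a group came from separate cultures, so p-values measure the spread between libraries, which may be technical.

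The libraries held between 15878808 and 20866260 counts on genes, and 12974 genes were tested. Principal component 1 of the libraries carried 81.5% of the variance. Replicates differed by more than sampling noise, with a chi-square per gene between 3.58 and 12. The largest value was between replicates 1 and 3 of untreated TβRIIflox/flox PT cells, and replicate 3 carries a title abbreviated differently from those of its group. Tgfbr2 had between 6485 and 13474 counts in every library of both genotypes, and counts over whole transcripts do not show whether the floxed exon is present. Its normalized counts were 7562 to 9247 in untreated TβRIIflox/flox and 6358 to 6782 in untreated TβRII-/- libraries. The untreated log2 fold change was -0.346 (edgeR adjusted p = 2.85e-05). After H2O2 the ranges were 13270 to 13920 in TβRIIflox/flox and 7117 to 7311 in TβRII-/- libraries. Of 12 proximal tubule markers, 6 had at most 3 counts in every library, among them Slc34a1, Slc22a6, Slc22a8 and Hnf4a, while Lrp2 (megalin) averaged 14340 and Aqp1 (a water channel) 7817 normalized counts over the 12 libraries. The cells thus carried some proximal tubule transcripts, while several transporters that define the tissue were at or near 0. In such bulk libraries, fewer cells with a transcript and less of it per cell cannot be told apart.

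In the renin-angiotensin system, renin cleaves angiotensinogen (Agt) to angiotensin I, and angiotensin-converting enzyme (Ace) trims this to angiotensin II, the peptide that acts on the AT1 receptor (Agtr1a and Agtr1b in mice). Proximal tubule cells make angiotensinogen themselves and also take it up from the filtrate, and their brush border carries peptidases that break angiotensins down. Aminopeptidase A (Enpep) turns angiotensin II into angiotensin III, and neprilysin (Mme) cleaves angiotensin I to angiotensin 1-7 among many other peptides. Atp6ap2 encodes the prorenin receptor, which is also an accessory subunit of the vacuolar proton pump, and Agtrap encodes a protein that binds the AT1 receptor and promotes its internalization.

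Promoters are shown for the 4 members that rose with H2O2 in both genotypes. They shared the sign of that effect and not that of the genotype effect, where Agt was higher and Atp6ap2 lower in TβRII-/- PT cells. Each is 250 bases before to 50 bases after a RefSeq start site on GRCm38.p6, read 5′ to 3′ on the strand of the gene, with motif matches in capitals. Agt lies at chr8:124569657-124569956 (minus strand), Atp6ap2 at chrX:12587509-12587808 (plus strand), Agtrap at chr4:148088015-148088314 (minus strand) and Enpep at chr3:129332700-129332999 (minus strand).
Agt: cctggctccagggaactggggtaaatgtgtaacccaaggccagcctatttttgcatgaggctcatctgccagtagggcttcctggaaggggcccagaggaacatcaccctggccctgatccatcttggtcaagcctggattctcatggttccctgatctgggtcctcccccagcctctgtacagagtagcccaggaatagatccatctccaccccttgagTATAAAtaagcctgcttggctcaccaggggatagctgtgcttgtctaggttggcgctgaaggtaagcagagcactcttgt
Atp6ap2: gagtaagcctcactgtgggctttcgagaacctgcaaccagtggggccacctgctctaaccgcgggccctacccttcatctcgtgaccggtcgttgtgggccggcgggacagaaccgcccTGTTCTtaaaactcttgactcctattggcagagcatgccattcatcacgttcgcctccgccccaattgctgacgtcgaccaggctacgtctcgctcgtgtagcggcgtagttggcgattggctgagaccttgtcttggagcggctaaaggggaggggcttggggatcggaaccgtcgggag
Agtrap: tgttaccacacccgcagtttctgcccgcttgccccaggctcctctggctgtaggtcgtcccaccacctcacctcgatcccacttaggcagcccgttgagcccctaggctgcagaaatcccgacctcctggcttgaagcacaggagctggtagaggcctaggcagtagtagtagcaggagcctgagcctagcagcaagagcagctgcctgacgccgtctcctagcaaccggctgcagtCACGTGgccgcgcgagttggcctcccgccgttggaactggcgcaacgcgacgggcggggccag
Enpep: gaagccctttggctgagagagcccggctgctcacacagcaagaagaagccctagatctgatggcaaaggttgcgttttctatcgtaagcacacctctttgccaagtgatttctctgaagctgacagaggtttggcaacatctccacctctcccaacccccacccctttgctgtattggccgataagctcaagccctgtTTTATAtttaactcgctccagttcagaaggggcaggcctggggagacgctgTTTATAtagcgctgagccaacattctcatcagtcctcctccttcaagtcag
The motifs searched on both strands were the TATA box TATAAA, the glucocorticoid receptor half-site TGTTCT, the antioxidant response core TGACNNNGC, the Smad box CAGAC and the E-box CACGTG. The capitals mark a TATA box in Agt at base -30 from the start site, a TATA box on the opposite strand in Enpep at bases -52 and -1, a glucocorticoid receptor half-site in Atp6ap2 at base -131, and an E-box in Agtrap at base -13. The TATA box was found in 13.6%, the half-site in 19.0%, the antioxidant core in 12.4%, the Smad box in 49.6% and the E-box in 7.15% of 32851 mouse promoters of this length. No motif of the 5 was shared by all 4 promoters, and a match is a description of the letters, not a binding site. The Smad box was in none of the 4 printed promoters. Among promoters not printed, it was on the opposite strand in a Mme promoter at base -32 and in that of Ren1 at bases -161 and -9.

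The cells transcribed the substrate and several peptidases of the pathway, but renin, Ace and the angiotensin receptors were at or near 0 counts. Normalized counts per kb of transcript (lengths from a later annotation release than the one used for counting) put Mme first in untreated TβRIIflox/flox PT cells at 1292, then Atp6ap2 at 789, Agtrap at 238 and Enpep at 231, with Agt far lower at 3.88. The libraries of Agtrap (220.7 to 250.3 per kb) and Enpep (202.9 to 249.8 per kb) overlapped, so their order was not resolved in that group. After H2O2, Enpep (455.3 to 496.4 per kb) lay above Agtrap (275.9 to 299.6 per kb) in all 3 TβRIIflox/flox libraries. In untreated TβRII-/- PT cells Mme (662.5 to 707.7 per kb) and Atp6ap2 (698.8 to 715.1 per kb) overlapped. After H2O2 Atp6ap2 (860.8 to 872.5 per kb) stood above Mme (581.4 to 597.9 per kb) in the TβRII-/- libraries.

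**Figure D1:**
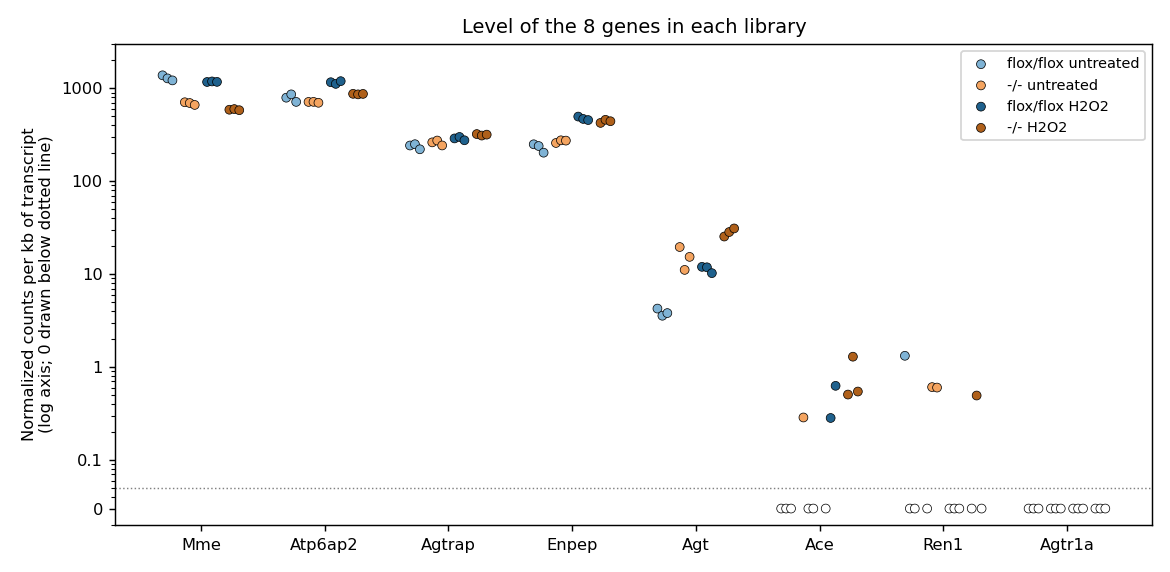
Normalized counts per kb of transcript (log axis) for the 8 genes, 1 point for each of the 12 libraries, coloured by group, with libraries at 0 drawn as open points below the dotted line. Mme, Atp6ap2, Agtrap and Enpep lie between 202.9 and 1380 per kb in every library, Agt lies between 3.57 and 31.04, and Ace, Ren1 and Agtr1a are near or at 0.

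Agt, the gene of angiotensinogen (chr8:124556587-124569706), was higher in TβRII-/- PT cells than in TβRIIflox/flox PT cells and rose with H2O2 in both. Its raw counts were 24, 19 and 21 in untreated TβRIIflox/flox PT cells and 111, 68 and 95 in untreated TβRII-/- PT cells. After H2O2 they were 70, 68 and 53 in TβRIIflox/flox and 163, 214 and 185 in TβRII-/- PT cells. The groups compared did not overlap in any of these 4 comparisons, and the highest and lowest groups were the H2O2-treated TβRII-/- and the untreated TβRIIflox/flox libraries.

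Scaled to a library of 17359318 counts, Agt averaged 22.99 ± 2.08, 90.96 ± 25.1, 67.3 ± 5.72 and 167.6 ± 16.8 normalized counts (mean ± SD, n = 3) in untreated TβRIIflox/flox, untreated TβRII-/-, H2O2-treated TβRIIflox/flox and H2O2-treated TβRII-/- PT cells. It was 3.92-fold higher in untreated TβRII-/- PT cells (log2 fold change 1.97, SE 0.221, edgeR adjusted p = 2.78e-09) and 2.48-fold higher between the H2O2-treated genotypes (log2 fold change 1.31, SE 0.163, edgeR adjusted p = 2.08e-08). With H2O2 it rose 2.92-fold in TβRIIflox/flox PT cells (log2 fold change 1.55, SE 0.235, edgeR adjusted p = 3.47e-06) and 1.85-fold in TβRII-/- PT cells (log2 fold change 0.885, SE 0.154, edgeR adjusted p = 2.66e-05). In each of these comparisons Agt had the largest log2 fold change of the 5 tested members. The difference between the H2O2 effects was -0.66 on the log2 scale (95% interval -1.245 to -0.077, edgeR adjusted p = 0.147), which did not pass the test. Its annotated transcripts Agt-201 and Agt-202 held identical counts, since each read was counted on both.

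**Figure D2:**
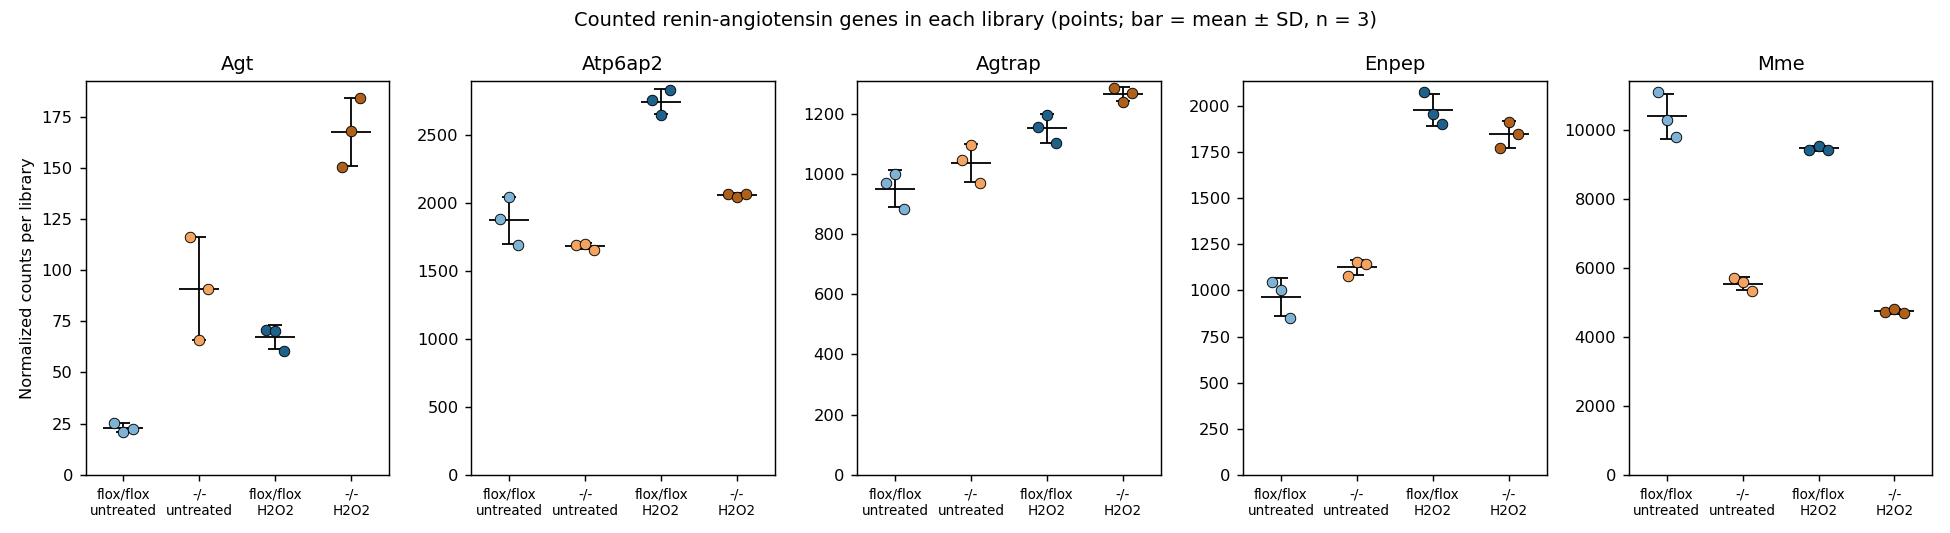
Normalized counts of the 5 tested genes in each library (vertical axis from 0), with 3 points for each group and bars for the mean ± SD. Agt is lowest in untreated TβRIIflox/flox PT cells (22.99 on average) and highest in H2O2-treated TβRII-/- PT cells (167.6), whereas Mme splits by genotype and Enpep by treatment.

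The gene with the pattern closest to that of Agt over the 12 libraries was Papln, which encodes an extracellular matrix protein, with a Pearson r of 0.99 of log2 normalized counts, followed by Itprid2 at 0.986. Papln had log2 fold changes of 3.03 between the untreated genotypes and 2.49 with H2O2 in TβRIIflox/flox PT cells, and those of Itprid2 were 0.35 and 0.29. The libraries share group structure, so these correlations describe a likeness of pattern over 4 groups. The 24 tested genes nearest to Agt on its chromosome had a median log2 fold change of -0.44 between the untreated genotypes, opposite in sign to Agt.

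Among 15 genes of factors known to act on Agt transcription, 12 were tested. In untreated TβRII-/- PT cells 3 were higher and 5 lower than in TβRIIflox/flox PT cells, with a median log2 fold change of -0.06, beside 33.3% and 31.4% of all genes tested that were called higher and lower. Nfe2l2, the gene of the oxidative stress factor Nrf2, was higher (log2 fold change 1.11), as was Cebpb (1.41), while Cebpd (-1.86) and Nfkb1 (-0.93) were lower. Hnf4a, a hepatocyte and proximal tubule factor, had at most 1 count in any untreated library. With H2O2 in TβRIIflox/flox PT cells 3 of the 12 rose and 5 fell (median log2 fold change -0.15, background 21.0% and 20.6%), among them Hnrnpf, a nuclear RNA-binding protein gene, at -0.29 and Nfkb1 at -0.25. In TβRII-/- PT cells 4 rose and 3 fell (median 0.05, background 20.5% and 19.1%), led by Cebpb at -0.51 and Nfe2l2 at 0.36.

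Glucocorticoids are a known inducer of Agt, so a list of 7 genes induced by the glucocorticoid receptor was examined beside it. All 7 fell with H2O2 in both genotypes, beside 20.6% of all genes tested in TβRIIflox/flox and 19.1% in TβRII-/- PT cells, with medians of -1.75 in TβRIIflox/flox and -1.54 in TβRII-/- PT cells on the log2 scale. Zbtb16, a transcription factor gene, fell by 3.89 in TβRIIflox/flox and by 2.09 in TβRII-/- PT cells, and Sgk1, a kinase of epithelial sodium transport, fell by 1.93 and 3.03. Tsc22d3, which encodes the glucocorticoid-induced leucine zipper, fell by 1.75 and 1.68, and Per1, a clock gene, fell by 1.75 and 1.54. Their summed level was between 9581 and 9746 normalized counts in untreated and between 3320 and 3509 in H2O2-treated TβRIIflox/flox libraries. In TβRII-/- libraries it was between 11170 and 11530 untreated and between 4420 and 4493 after H2O2. With H2O2 Agt therefore rose while these genes fell. In untreated TβRII-/- PT cells 5 of the 7 were higher and 2 lower than in TβRIIflox/flox PT cells (median 0.27). Between the H2O2-treated genotypes 4 were higher and 0 lower (median 0.33). Of all genes tested, 33.3% were higher and 31.4% lower untreated, and 35.1% and 31.3% after H2O2. Agt was also higher in TβRII-/- PT cells in both comparisons. The part of hydrocortisone in the Agt result was not tested. Nr3c1, the gene of the glucocorticoid receptor, had log2 fold changes with H2O2 of 0.18 in TβRIIflox/flox and 0.19 in TβRII-/- PT cells (edgeR adjusted p = 0.0132 and 0.00922).

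**Figure D3:**
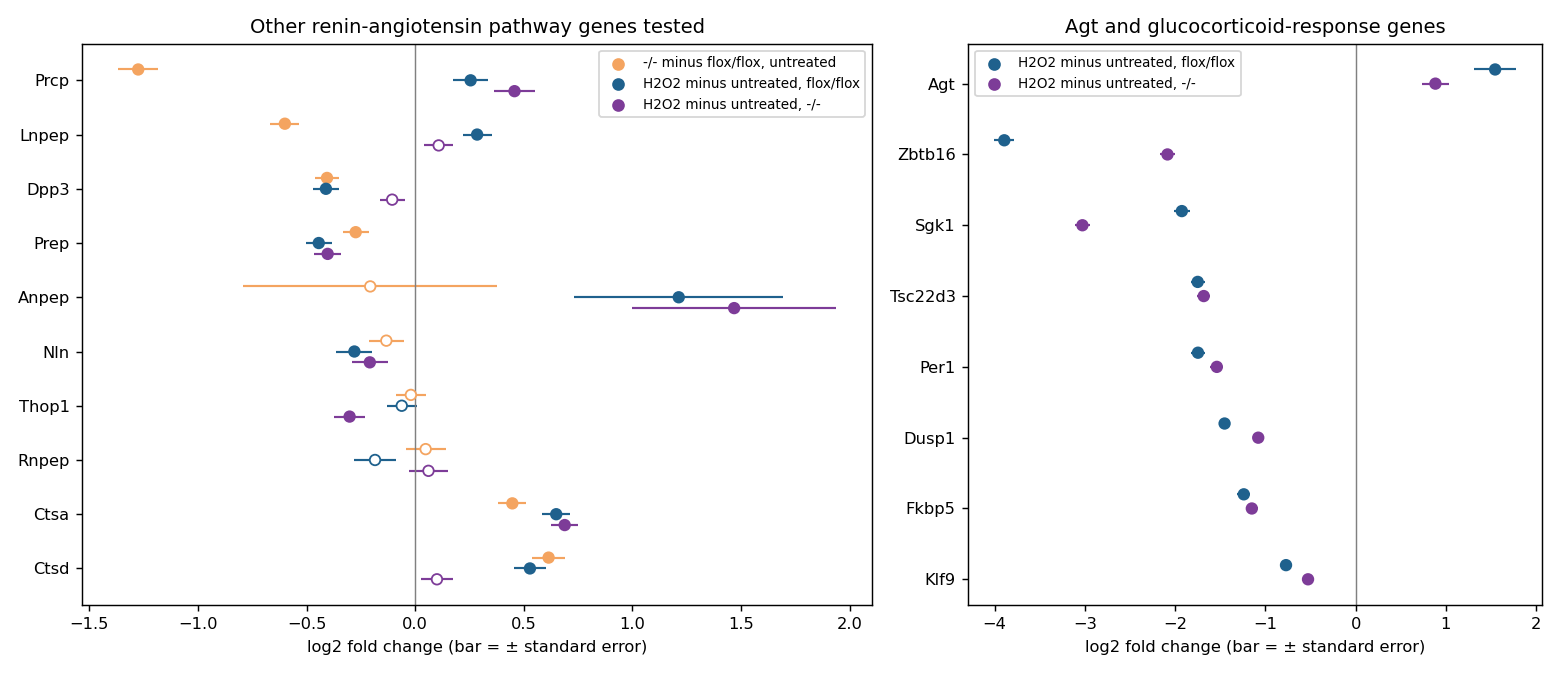
Log2 fold changes (horizontal axis, bars ± standard error) of the 10 tested renin-angiotensin pathway genes outside the 8 members (left) and of Agt with 7 glucocorticoid-response genes (right), with filled points for an adjusted p under 0.05. Agt lies to the right of 0 for H2O2 in both genotypes (1.55 and 0.885) and the 7 glucocorticoid-response genes lie to the left.

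The genes that take angiotensinogen into proximal tubule cells moved opposite to Agt between the genotypes. Of 5 genes of this uptake route 4 were tested, and all 4 were lower in TβRII-/- PT cells, with median log2 fold changes of -0.92 untreated and -0.91 after H2O2, beside 31.4% and 31.3% of all genes tested. Untreated, Lrp2, the endocytic receptor megalin, was lower by a log2 fold change of -0.65, Cubn, its partner cubilin, by -1.24, Dab2, an endocytic adaptor of megalin, by -1.19, and Lrpap1, a chaperone of megalin, by -0.26. With H2O2 none of the 4 passed edgeR's test in either genotype, and 2 in TβRIIflox/flox and 1 in TβRII-/- PT cells had an unadjusted p under 0.05. The whole list of proximal tubule markers, which also holds Lrp2 and Cubn, moved with genotype too. Of its 6 tested genes 5 were lower and 1 higher in untreated TβRII-/- PT cells (median -0.88), beside 31.4% and 33.3% of all genes tested. After H2O2 5 were lower and 0 higher (median -1.145), beside 31.3% and 35.1%. Among the 6, Slc5a2 and Acsm2 averaged only 7.56 and 3.72 normalized counts over the libraries. The summed level of the list was between 21970 and 27920 normalized counts in untreated TβRIIflox/flox and between 15060 and 16100 in untreated TβRII-/- libraries. After H2O2 it was between 30880 and 33730 in TβRIIflox/flox and between 15860 and 17250 in TβRII-/- libraries. With H2O2 in TβRIIflox/flox PT cells 1 of the 6 was called higher and 0 lower (median log2 fold change 0.015). Of all genes tested, 21.0% were called higher and 20.6% lower. That marker was Aqp1, which averaged 7103 normalized counts untreated and 14610 after H2O2, while Lrp2 averaged 17280 and 17630. In TβRII-/- PT cells 1 was higher and 1 lower (median 0.001), beside 20.5% and 19.1%. The part of a shift in proximal tubule identity in these results was not tested.

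Renin transcripts were at or near 0. Ren1 (chr1:133350674-133360320) had 5 counts over all 12 libraries, 2 of them in replicate 1 of untreated TβRIIflox/flox PT cells and 1 each in untreated TβRII-/- replicates 2 and 3 and H2O2-treated TβRII-/- replicate 2. Among 9 renin cell markers, Akr1b7, Gja5 and Rgs5 were near 0 as well, with averages of 2.18, 0.268 and 0.353 normalized counts, while Mcam and Foxd1, which other cells share, averaged 1851 and 427.6. A count of 0 allows up to 3 counts in a library, which covers counting error alone, so a difference between groups was not detectable at this depth.

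Atp6ap2, the gene of the prorenin receptor (chrX:12587759-12617051), rose with H2O2 in both genotypes and was lower in TβRII-/- PT cells after H2O2. Its normalized counts were 1882, 2043 and 1696 in untreated TβRIIflox/flox and 1694, 1698 and 1659 in untreated TβRII-/- libraries. After H2O2 they were 2761, 2648 and 2834 in TβRIIflox/flox and 2071, 2043 and 2068 in TβRII-/- libraries. The untreated genotypes overlapped, and the H2O2-treated ones did not.

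With H2O2 Atp6ap2 rose 1.47-fold in TβRIIflox/flox (log2 fold change 0.55, SE 0.061, edgeR adjusted p = 1.19e-08) and 1.22-fold in TβRII-/- PT cells (log2 fold change 0.29, SE 0.061, edgeR adjusted p = 0.000318). The H2O2 effect was smaller in TβRII-/- PT cells by a log2 difference of -0.26 (95% interval -0.437 to -0.084, edgeR adjusted p = 0.0499), a call at the edge of the threshold that 13 of 19 alternatives did not keep. Between the H2O2-treated genotypes it was 0.75-fold (log2 fold change -0.42, SE 0.06, edgeR adjusted p = 3.93e-07) in TβRII-/- PT cells. Between the untreated genotypes the log2 fold change was -0.15 (SE 0.062, edgeR adjusted p = 0.0302), which became -0.096 without replicate 2 of untreated TβRIIflox/flox PT cells (edgeR adjusted p = 0.195). The call was also lost without untreated TβRII-/- replicate 1, 2 or 3 (edgeR adjusted p = 0.0523, 0.0529 and 0.0819). With only the groups compared it was lost too (edgeR adjusted p = 0.0671).

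Atp6ap2 is also part of the vacuolar proton pump, and 19 of 22 genes of this pump were tested. With H2O2 in TβRIIflox/flox PT cells 6 rose and 1 fell (median log2 fold change 0.06), beside 21.0% and 20.6% of all genes tested. Atp6v0a1, a membrane subunit, rose by 0.55, Atp6v0b by 0.37 and Atp6ap1, the other accessory subunit, by 0.31, while Atp6v1c1, a cytosolic subunit, fell by 0.20. In TβRII-/- PT cells 5 rose, with a median of 0.09 (background 20.5%), led by Atp6v0a1 at 0.50 and Atp6v0d1 at 0.33. In the comparison of untreated genotypes 8 were higher and 4 lower in TβRII-/- PT cells, and after H2O2 7 were higher and 5 lower, beside 33.3% and 31.4%, and 35.1% and 31.3%, of all genes tested. Atp6v1c2, a tissue-restricted subunit, had 0 or 1 count in the untreated TβRIIflox/flox libraries and between 42 and 82 in the untreated TβRII-/- libraries. Igsf8 was among the genes most like Atp6ap2 over the 12 libraries (r = 0.978).

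Ace, the gene of angiotensin-converting enzyme (chr11:105967948-105989964), had 14 counts over all libraries. It was at 0 in the 3 untreated TβRIIflox/flox libraries, at 1, 0 and 0 in untreated TβRII-/-, at 0, 1 and 2 in H2O2-treated TβRIIflox/flox and at 2, 6 and 2 in H2O2-treated TβRII-/- libraries. The H2O2-treated TβRII-/- libraries were thus the group in which every library held a count, at a level too low to be tested. Agtr1a, the gene of the main AT1 receptor (chr13:30336356-30382867), had 0 counts in every library, on each of its annotated transcripts. Agtr1b, the other AT1 receptor gene, Agtr2, the AT2 receptor gene, Mas1, the gene of the receptor for angiotensin 1-7, and Mrgprd, a receptor of the same family, were also at 0 in every library.

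Agtrap (chr4:148077061-148088064), whose product binds the AT1 receptor, was counted in every library although the receptor was not. Its normalized counts were 968.8, 1000 and 881.8 in untreated TβRIIflox/flox, 1047, 1095 and 969.7 in untreated TβRII-/-, 1154, 1197 and 1102 in H2O2-treated TβRIIflox/flox and 1286, 1239 and 1268 in H2O2-treated TβRII-/- libraries. It rose 1.21-fold with H2O2 in TβRIIflox/flox (log2 fold change 0.28, SE 0.065, edgeR adjusted p = 0.000962) and 1.22-fold in TβRII-/- PT cells (log2 fold change 0.29, SE 0.064, edgeR adjusted p = 0.000599). The treated and untreated groups did not overlap in either genotype. Between genotypes the log2 fold change was 0.13 untreated (95% interval -0.007 to 0.26, edgeR adjusted p = 0.0912) and 0.13 after H2O2 (95% interval 0.005 to 0.263, edgeR adjusted p = 0.0627), and neither passed the test. The H2O2 effects of the genotypes differed by 0.008 on the log2 scale (95% interval -0.178 to 0.194, edgeR adjusted p = 0.979). Its second transcript, Agtrap-203, held 10.8% of the summed transcript counts and had a log2 ratio of 0.43 between the untreated genotypes. Plppr3 was among the genes most like Agtrap over the libraries (r = 0.969).

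Genes that act downstream of the AT1 receptor in other cells were transcribed, and 18 of 19 were tested. Between the untreated genotypes 6 were higher and 7 lower in TβRII-/- PT cells (median log2 fold change 0.05), and after H2O2 8 were higher and 6 lower (median 0.04), beside 33.3% and 31.4%, and 35.1% and 31.3%, of all genes tested, which is near the share of the list. Nox4, the gene of an NADPH oxidase that makes H2O2, had between 491 and 558 counts in untreated TβRIIflox/flox and between 15 and 26 in untreated TβRII-/- libraries, a log2 fold change of -4.71. Plcb1, a phospholipase C gene, was higher by 2.55, Arap1, whose product regulates AT1 receptor trafficking, by 1.08, and Gna12, a G protein subunit gene, was lower with a log2 fold change of -1.23. With H2O2 3 of the 18 rose and 4 fell in TβRIIflox/flox PT cells and 4 rose and 3 fell in TβRII-/- PT cells, near the shares of all genes tested (21.0% and 20.6%, and 20.5% and 19.1%). Grk5, a receptor kinase gene, fell by 0.73 and 0.85.

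Enpep, the gene of aminopeptidase A (chr3:129269177-129332749), rose with H2O2 in both genotypes, and by less in TβRII-/- PT cells. Its normalized counts were 1045, 1000 and 848.5 in untreated TβRIIflox/flox and 1079, 1152 and 1144 in untreated TβRII-/- libraries. After H2O2 they were 2075, 1957 and 1904 in TβRIIflox/flox and 1774, 1916 and 1849 in TβRII-/- libraries. The TβRII-/- libraries thus lay above the TβRIIflox/flox ones untreated, and the genotypes overlapped after H2O2.

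Enpep rose 2.05-fold in TβRIIflox/flox (log2 fold change 1.04, SE 0.068, edgeR adjusted p = 7.38e-14) and 1.64-fold in TβRII-/- PT cells (log2 fold change 0.71, SE 0.066, edgeR adjusted p = 3.39e-10). The effects differed by -0.32 on the log2 scale (95% interval -0.515 to -0.13, edgeR adjusted p = 0.0247). Between the untreated genotypes it was 1.17-fold higher in TβRII-/- PT cells (log2 fold change 0.22, SE 0.069, edgeR adjusted p = 0.00561), and after H2O2 the log2 fold change was -0.10 (95% interval -0.231 to 0.031, edgeR adjusted p = 0.171). Without replicate 3 of untreated TβRIIflox/flox PT cells, the lowest Enpep library, the untreated log2 fold change was 0.128 (edgeR adjusted p = 0.0942). The difference of effects lost its call in 4 of 19 alternatives, each of which left out 1 library. It was -0.261 without untreated TβRIIflox/flox replicate 3 (edgeR adjusted p = 0.0539), -0.304 and -0.31 without untreated TβRII-/- replicates 2 and 3 (edgeR adjusted p = 0.0655 and 0.0513), and -0.293 without H2O2-treated TβRII-/- replicate 1 (edgeR adjusted p = 0.0843). All 5 Enpep transcripts with at least 5% of the summed counts had log2 ratios between 0.222 and 0.391 for the untreated genotypes. Rap1gap (r = 0.989) and Dnase2a, the gene of a lysosomal nuclease (r = 0.987), were most like Enpep over the libraries.

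Mme, the gene of neprilysin (chr3:63295211-63383713), was lower in TβRII-/- PT cells, untreated and after H2O2. Its normalized counts were 11090, 10280 and 9780 in untreated TβRIIflox/flox and 5689, 5582 and 5326 in untreated TβRII-/- libraries. After H2O2 they were 9404, 9538 and 9426 in TβRIIflox/flox and 4729, 4806 and 4674 in TβRII-/- libraries. Every TβRIIflox/flox library lay above every TβRII-/- library.

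Between the untreated genotypes Mme was 0.533-fold (log2 fold change -0.91, SE 0.06, edgeR adjusted p = 1.21e-14), and between the H2O2-treated ones 0.501-fold (log2 fold change -0.997, SE 0.061, edgeR adjusted p = 1.13e-15). With H2O2 it fell in TβRII-/- PT cells (log2 fold change -0.22, SE 0.06, edgeR adjusted p = 0.00368), and in TβRIIflox/flox PT cells the log2 fold change was -0.14 (95% interval -0.257 to -0.013, edgeR adjusted p = 0.0686). The effects of H2O2 differed by -0.09 (95% interval -0.262 to 0.084, edgeR adjusted p = 0.579). The 24 tested neighbours of Mme on its chromosome had a median log2 fold change of -0.31 between the untreated genotypes, in the same direction as Mme and smaller. Cdh2, the gene of N-cadherin (r = 0.999), and Fbln2, a matrix glycoprotein gene (r = 0.998), were most like Mme over the libraries, with log2 fold changes of -1.98 and -4.31 between the untreated genotypes.

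**Figure D4:**
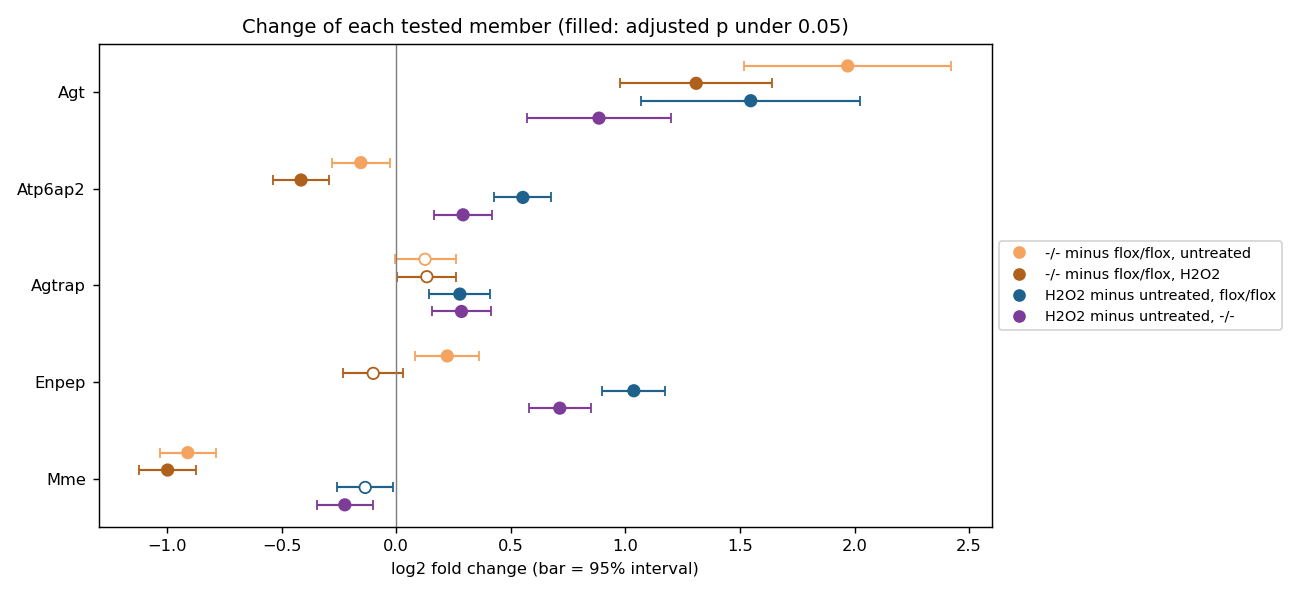
Log2 fold change (horizontal axis) of the 5 tested genes with its 95% interval for 4 comparisons, filled where the adjusted p was under 0.05. Agt, Atp6ap2, Agtrap and Enpep lie to the right of 0 for H2O2 in both genotypes, and Mme lies near -0.91 and -0.997 for the comparisons of genotypes.

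Counted together, 4 of the 5 tested members passed the test between the untreated genotypes, where 64.7% of all genes tested did, 2 of them higher and 2 lower in TβRII-/- PT cells. After H2O2 3 passed, 1 higher and 2 lower, beside 66.4% of all genes tested. With H2O2 in TβRIIflox/flox PT cells 4 of 5 rose, beside 41.6% of all genes called in either direction and 21.0% called higher, with a median log2 fold change of 0.55 for the members and 0.007 for all genes tested. In TβRII-/- PT cells all 5 passed, 4 higher and 1 lower, beside 39.6% called and 20.5% called higher, with medians of 0.29 and 0.018. The difference of the H2O2 effects was called for 2 of 5, Enpep and Atp6ap2, both smaller in TβRII-/- PT cells, beside 10.2% of all genes tested, 6.28% with a lower and 3.90% with a higher effect in TβRII-/- PT cells. At the study's limits (an unadjusted p of 0.01 and a fold change of 1.5) 2 members passed in each comparison: Agt and Mme between the genotypes, where 27.0% of all genes tested passed untreated and 29.8% after H2O2, and Agt and Enpep with H2O2, where 7.56% passed in TβRIIflox/flox and 7.77% in TβRII-/- PT cells. Groups did not overlap for 3 of 5 members between the untreated genotypes (65.3% of all genes tested), 4 between the H2O2-treated genotypes (71.0%), and all 5 with H2O2 in TβRIIflox/flox (47.4%) and TβRII-/- PT cells (52.1%). The comparisons share libraries, and with 5 members tested nothing particular to the pathway can be read from these counts.

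The other peptidases and receptors of the pathway were taken from 22 named genes, of which 21 were in the tables, 10 were tested and 9 were at 0 in every library. Between the untreated genotypes 2 were higher and 4 lower in TβRII-/- PT cells (median log2 fold change -0.17), beside 33.3% and 31.4% of all genes tested. Prcp, a carboxypeptidase that makes angiotensin 1-7 from angiotensin II, was lower (log2 fold change -1.28, SE 0.092, edgeR adjusted p = 8.56e-14), as was Lnpep, the aminopeptidase that binds angiotensin IV (-0.60). Dpp3, a dipeptidyl peptidase that degrades angiotensins (-0.41), and Prep, a prolyl endopeptidase (-0.27), were lower too. Ctsd (0.61) and Ctsa (0.45), lysosomal proteases that can cleave angiotensinogen and angiotensin I, were higher. After H2O2 3 of the 10 were higher and 4 lower in TβRII-/- PT cells (background 35.1% and 31.3%), led by Prcp at -1.07 and Lnpep at -0.78.

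With H2O2 in TβRIIflox/flox PT cells 5 of these 10 genes rose and 3 fell (median log2 fold change 0.10, background 21.0% and 20.6%), and in TβRII-/- PT cells 3 rose and 3 fell (median 0.08, background 20.5% and 19.1%). Anpep, aminopeptidase N, rose by 1.21 and 1.47 from few reads, with between 2 and 11 counts in untreated and between 10 and 21 in H2O2-treated TβRIIflox/flox libraries. Ctsa rose by 0.65 and 0.69, and Prcp by 0.26 and 0.46. Prep fell by 0.44 and 0.40 in TβRIIflox/flox and TβRII-/- PT cells.

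Enpep and Mme belong to the brush border, and 4 of 9 further brush border peptidase genes were tested. Of these, 1 was higher and 2 were lower in untreated TβRII-/- PT cells, beside 33.3% and 31.4% of all genes tested. Ggt1, γ-glutamyltransferase, had between 56 and 86 counts in untreated TβRIIflox/flox and between 6 and 9 in untreated TβRII-/- libraries (log2 fold change -3.30), whereas Xpnpep2, aminopeptidase P, had between 3 and 5 and between 21 and 35 (log2 fold change 2.63). With H2O2 Ggt1 fell in TβRIIflox/flox (-1.83) and Xpnpep2 in TβRII-/- PT cells (-1.86). The peptidases Dpp4 and Mep1b of the normal brush border were at or near 0.

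Some markers of other kidney cells moved with the same groups as these genes. The principal cell list of 5 genes had 1 tested gene, Scnn1g, a subunit of the epithelial sodium channel, with Aqp2 at 0. Its summed level was between 12.62 and 21.14 normalized counts in untreated TβRIIflox/flox, between 30.02 and 37.65 in untreated TβRII-/-, between 21.3 and 29.8 in H2O2-treated TβRIIflox/flox and between 51.71 and 64.47 in H2O2-treated TβRII-/- libraries. The lowest and highest groups were thus those of Agt, at a lower level. Scnn1g was higher in TβRII-/- PT cells (log2 fold change 1.06 untreated and 1.39 after H2O2) and rose with H2O2 in TβRII-/- PT cells (0.88), while its log2 fold change in TβRIIflox/flox PT cells was 0.56 (edgeR adjusted p = 0.195). None of the 5 intercalated cell markers had enough counts to be tested, with Foxi1 at 0, and their summed level was at most 2.23 in TβRIIflox/flox libraries and between 6.28 and 25.86 in TβRII-/- libraries. Slc4a1 made up most of this sum in TβRII-/- PT cells, with averages of 4.61 untreated and 15.15 after H2O2.

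Of 6 endothelial markers 1 was tested, Kdr, a VEGF receptor, while Pecam1 and Cdh5 averaged 0.351 and 0.795 normalized counts. The summed endothelial level was between 128 and 142 in untreated TβRIIflox/flox and between 474.5 and 587.7 in untreated TβRII-/- libraries, and after H2O2 it was between 25.82 and 28.65 and between 41.67 and 70.61. It was thus higher in TβRII-/- PT cells, as Agt was, and lower after H2O2, where Agt was higher. Kdr made up most of this sum, with averages of 128.8 in untreated TβRIIflox/flox and 507.4 in untreated TβRII-/- PT cells.

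Of 9 renin cell markers 5 were tested. Mcam averaged 1851, Foxd1, a stromal progenitor factor gene, 427.6, and Tbx18 34.2 normalized counts, and Pdgfrb 10.7 and Gja4 9.83. In untreated TβRII-/- PT cells Foxd1 was higher (606.5 against 303 normalized counts on average), and on the log2 scale Mcam (-0.60), Tbx18 (-0.67), Pdgfrb (-2.74) and Gja4 (-2.71) were lower. The summed level was between 2187 and 2504 in untreated TβRIIflox/flox, between 1792 and 2110 in untreated TβRII-/-, between 2783 and 3240 in H2O2-treated TβRIIflox/flox and between 2037 and 2192 in H2O2-treated TβRII-/- libraries. Mcam made up most of this sum, with averages of 1954 in untreated TβRIIflox/flox and 1294 in untreated TβRII-/- PT cells.

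Of 5 podocyte markers 3 were tested, with Nphs1 at 0. Synpo, an actin-associated protein gene, was lower in untreated TβRII-/- PT cells (log2 fold change -2.98), as Mme was, Podxl was higher (3.83), and Wt1 was lower (-0.26). The summed podocyte level was between 3026 and 3275 in untreated TβRIIflox/flox, between 1061 and 1128 in untreated TβRII-/-, between 2927 and 3523 in H2O2-treated TβRIIflox/flox and between 1205 and 1265 in H2O2-treated TβRII-/- libraries. Synpo set most of this fall between the untreated genotypes, from 2900 to 366.7 normalized counts on average, while Podxl went from 36.25 to 520.

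Of 6 fibroblast markers 2 were tested, with Lum at 0: in untreated TβRII-/- PT cells Col1a1 was lower (-1.56) and Dcn higher (1.87, from an average of 6.6 normalized counts over the libraries). The summed fibroblast level was between 44.09 and 53.65 in untreated TβRIIflox/flox, between 16.46 and 24.89 in untreated TβRII-/-, between 53.76 and 74.49 in H2O2-treated TβRIIflox/flox and between 37.85 and 46.74 in H2O2-treated TβRII-/- libraries. Of 6 immune markers 2 were tested, with Adgre1 and Cd3e at 0. Csf1r averaged 832 and Cd68 189.6 normalized counts, and in untreated TβRII-/- PT cells Csf1r was lower (-0.27) and Cd68 higher (0.78, edgeR adjusted p = 3.1e-07). The summed immune level was between 905.5 and 1165 in all libraries. The part of other cell types in the results was not tested.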

How the data were processed

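Bulk RNA of 12 libraries, 3 in each of 4 groups, was analysed from the labels' groups. The authors trimmed reads with fastp, used STAR for alignment to the GRCm38.p6 genome (GENCODE M23 annotation) and featureCounts for counting. They deposited raw counts for each transcript, without normalization, in which 1 read can count on several transcripts. Of 106332 transcripts, 104870 were matched to GENCODE M39 by identifier, and the other 1462, holding between 1.2% and 1.26% of a library's counts, were left out. The most counted transcript stood for each gene. Libraries held between 15878808 and 20866260 gene counts, which limits low genes. The floors given for low counts cover counting error alone. The intervals of log2 fold changes rest on the edgeR standard errors, which include the spread between libraries.

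Gene counts were tested in R 4.3.3 with edgeR 4.0.16 (TMM, filterByExpr, quasi-likelihood F-test, 1 mean per group) on all 12 libraries, with Benjamini-Hochberg adjustment over 12974 genes and a threshold of 0.05. Alternatives were DESeq2 1.42.0 and its size factors, other low-count filters, sums over transcripts, the second transcript, the replicate number as a block, only the groups compared, the study's limits (p of 0.01, fold of 1.5) and leaving out each library. The tests were checked on simulated counts with few changed genes and the same dispersion for every gene. These data differ in both, so the check does not cover their scaling and spread. Named genes are the 8 members, up to 4 called genes of each list with at least 10 normalized counts by size of change, and the 2 protein-coding genes most correlated with each tested member. A few genes under this rule are not reported here. Some others are named for low counts or a defining role, chosen after their values were seen. Members and lists were chosen with earlier results of these data known. Ren1 reads may be shared with a near-identical renin copy. Promoters are RefSeq's on GRCm38.p6 (7 of 8 members, none printed for the others).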

Additional observations from a re-analysis of the deposited data

Results flagged for a closer look

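The H2O2 effect differed between the genotypes for 2 of the 5 tested members, by a test of the difference itself (the interaction contrast of the edgeR fit, adjusted over all genes). For Enpep the effect in TβRII-/- PT cells minus that in TβRIIflox/flox PT cells was -0.323 on the log2 scale (SE 0.094, edgeR adjusted p = 0.0247). For Atp6ap2 it was -0.261 (SE 0.087, edgeR adjusted p = 0.0499). Both genes rose with H2O2 in all 3 libraries of each genotype, which did not overlap with the untreated ones. Among all genes tested, 10.2% had such a difference. Neither call was stable to leaving out single libraries.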

How the results depend on the processing

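Of 495 alternative values of 25 member results, 451 kept their direction and their side of the threshold, 27 lost the call, 7 gained one and 10 changed sign. All 10 changes of sign were for the difference of the H2O2 effects on Agtrap, whose main value is 0.008: it was -0.008 with DESeq2 and with its size factors, -0.005 with sums over transcripts, -0.064 with the second transcript, and from -0.054 to 0.05 over the fits that each omit 1 library. The calls for Agt in all 4 comparisons of groups, Mme between genotypes and in TβRII-/- PT cells with H2O2, Enpep with H2O2, and Atp6ap2 with H2O2 and between the H2O2-treated genotypes held in every alternative fit. Some of these fits could hardly differ from the main one. For Agt the second transcript repeats the main counts, and the sum adds the same counts again. A fit that omits a library of a group not compared keeps all libraries compared, and changes only the shared spread and scaling. With the study's limits, 2 members passed in each of the 4 comparisons, in place of 4 between the untreated genotypes, 3 after H2O2, and 4 and 5 with H2O2 in TβRIIflox/flox and TβRII-/- PT cells.

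The count of members whose H2O2 effect differed between genotypes, 2 in the main test, was 1 with no low-count filter, 1 with the replicate block, 1 with sums over transcripts and 1 with the second transcript, and from 0 to 2 over the fits that omit 1 library. It was 0 with edgeR without untreated TβRIIflox/flox replicate 3, untreated TβRII-/- replicate 3 or H2O2-treated TβRII-/- replicate 1, where 3, 3 and 2 members had an unadjusted p under 0.05; DESeq2 on all libraries called 2. Replicate numbers did not pair the libraries, with correlations of their deviations between -0.101 and 0.058, and the block ended 1 call, that of Atp6ap2 (edgeR adjusted p = 0.0646). The call of Atp6ap2 between the untreated genotypes was lost in 7 of 20 alternatives. The second transcript of Agtrap ended its H2O2 calls (edgeR adjusted p = 0.0565 in TβRIIflox/flox and 0.0853 in TβRII-/- PT cells) and gave calls between genotypes (0.0104 untreated and 0.0175 after H2O2). Without untreated TβRIIflox/flox replicate 3, the H2O2 effect on Mme in TβRIIflox/flox PT cells was called (-0.172 on the log2 scale, edgeR adjusted p = 0.0196), and without untreated TβRII-/- replicate 2 the difference of effects on Agt was -0.848 (edgeR adjusted p = 0.0498). The causes were not tested.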
